A study of Mus musculus with 12 samples.

Results

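The comparison described here is the NLRP6 genotype effect in mouse liver averaged over 2 diets, that is, the mean of the difference between knockout (KO) and wild-type (WT) liver on a normal diet (ND) and the same difference on a high-fat diet (HFD), with attention to genes whose difference had the same sign on both diets. Of 13843 genes with enough reads to be tested, 6987 had the same sign on both diets, 6855 had opposite signs and 1 had no difference on 1 diet. These genes were found from the signs of the fitted differences, so counts over them are descriptions. The average itself was tested over all 13843 genes, and 198 genes both passed that test and had the same sign on each diet. They are the members described below.

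NLRP6 is a cytosolic receptor of the NOD-like family. In the cells that express it, it can assemble with the adaptor ASC and caspase-1 into an inflammasome, the complex that matures interleukin-18 and interleukin-1 beta, and it is known best from the intestinal epithelium, where it bears on antimicrobial and mucus defence. In the liver, a high-fat diet leads hepatocytes to store triglyceride in lipid droplets, and the stated aim of the study concerns the part NLRP6 plays in that storage.

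Whole liver RNA was sequenced from WT mice and mice labelled NLRP6 knockout. All had eaten the normal diet until 8 weeks of age and were then given HFD or kept on ND for 12 weeks, which gave 4 groups of 3 libraries: WT ND, WT HFD, KO ND and KO HFD. The labels name no strain, sex, targeting method or cell-type-specific driver for the knockout. Total counts were 13339879 to 15933886 per library. None of the 42554 row IDs could be matched to a gene symbol (0 matches), so neither Nlrp6 itself nor any pathway or cell type marker was analysed here, and no cell type in the tissue could be checked. In whole tissue, fewer cells of a type and less RNA per cell cannot be told apart. The replicate that stood apart most was KO HFD replicate 1: a chi-square of counts, divided by its degrees of freedom, was 93.6 and 165 for its pairs with the other KO HFD libraries and 8.05 to 47.3 for all other pairs of replicates, so the counts that moved most with it are also given without it.

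A gene followed the genotype in all 12 libraries without a read on the other side. MGP_C57BL6NJ_G0033694 had 2030, 2358 and 2019 counts in WT ND replicates 1 to 3 and 2981, 2198 and 2398 in WT HFD replicates 1 to 3, and 0 counts in every KO library. Averaged over the 6 WT libraries it stood at 168 ± 44.8 CPM (reads of a gene relative to the TMM-adjusted library total; SD, n = 6). With 3 counts in each library taken as the floor, 0.176 to 0.253 CPM in the KO libraries, KO was at least 809-fold lower over both diets (edgeR adjusted p = 4.23e-09). Such floors cover counting error only. Whether this ID is Nlrp6 could not be checked against a symbol.

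Across the transcriptome, about as many genes had the same sign of the genotype difference on both diets as had opposite signs. The same sign was found for 50.5% of tested genes, 3608 higher in KO on both diets and 3379 lower on both, while 3266 were higher on ND and lower on HFD and 3589 were lower on ND and higher on HFD. By number of reads the share with the same sign was 48.1% of genes under 1 CPM, 49.1% of those from 1 to under 10 CPM, 52.0% of those from 10 to under 100 CPM and 50.6% of those at 100 CPM and over. Among genes that differed by at least 2-fold on each diet, 80 had the same sign (25 higher, 55 lower) and 99 opposite signs, or 142 and 161 without KO HFD replicate 1. Among genes with an unadjusted p under 0.05 on each diet, 207 had the same direction (1.50% of tested genes), 59 higher and 148 lower in KO. Opposite directions were found for 212 (1.53%), of which 85 were higher on ND and 127 higher on HFD. Without KO HFD replicate 1 these counts were 481 and 437. The count with opposite directions was 138 without KO ND replicate 2 and 133 without KO HFD replicate 3. The ND and HFD differences use no library in common.

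Separation of the libraries gave a similar balance. On both diets all 3 KO libraries lay beyond all 3 WT libraries in the same direction for 289 genes, 2.09% of those tested, of which 183 were lower and 106 higher in KO. In opposite directions this was so for 269 genes, 1.94% of those tested, of which 156 were lower on ND and higher on HFD and 113 were higher on ND and lower on HFD. Without KO HFD replicate 1, where 2 KO libraries are more easily clear of the WT libraries than 3, the counts were 954 and 839. Genes lower in KO on both diets were the largest of the 4 classes with all 12 libraries. No test was made of the difference between the class sizes, since genes are not independent replicates.

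**Figure D1:**
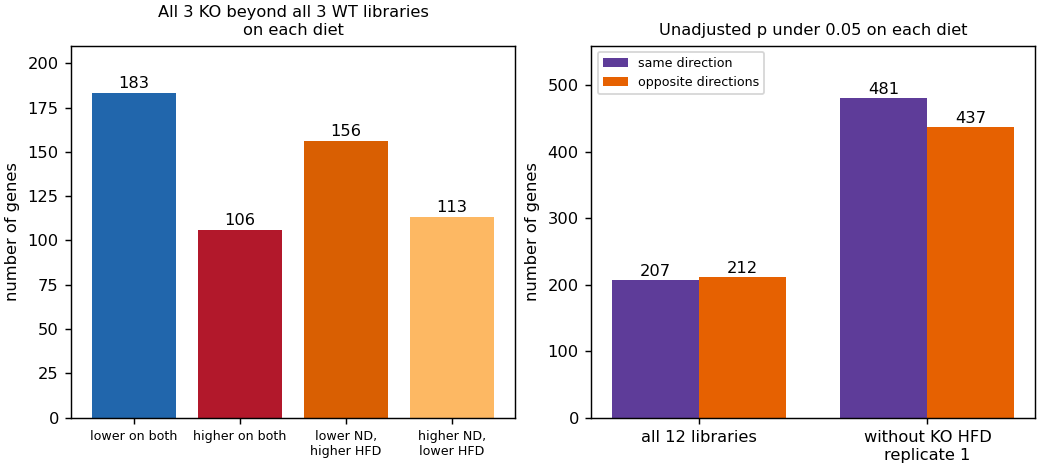
Number of genes (bars, linear axes) whose genotype difference held on each diet. The left panel counts genes whose 3 KO libraries all lie beyond the 3 WT libraries on each diet, 183 and 106 in the same direction and 156 and 113 in opposite directions. The right panel counts genes with an unadjusted edgeR p under 0.05 on each diet, 207 in the same and 212 in opposite directions with all 12 libraries, and 481 and 437 without KO HFD replicate 1.

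On average over the diets, 215 genes differed between KO and WT at an edgeR adjusted p under 0.05, 1.55% of those tested. Of these, 162 were lower in KO (1.17% of tested genes) and 53 higher (0.383%). The same sign on both diets was found for 149 of the 162 and 49 of the 53, while 17 genes (13 lower and 4 higher on average) had opposite signs. A gene with a large average difference tends to have the same sign on both diets by construction, so this proportion is no separate finding. The median average log2 fold change was -0.81 over the 149 members that fell and 0.67 over the 49 that rose, against 0.01 over all tested genes. With the gene absent from KO set at its bound, the former median was -0.81 as well. At least 2-fold changed 56 of the members that fell and 10 of those that rose. At the threshold, the last gene called had an adjusted p of 0.0499973 and an average log2 fold change of -0.60, and the first gene not called 0.0502666 and -0.69. At the sign boundary, the member closest to it had log2 fold changes of -1.32 on ND and -0.00252 on HFD, and the nearest called gene with opposite signs had -1.14 and 0.0125.

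**Figure D2:**
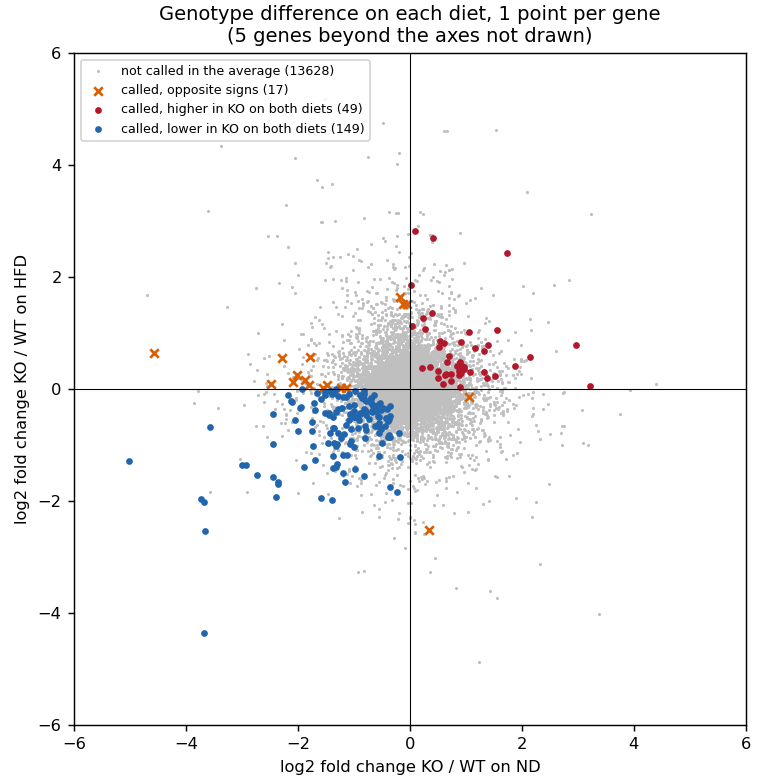
Log2 fold change between KO and WT on ND (x axis) and on HFD (y axis), 1 point per tested gene. Blue (lower) and red (higher) points are the members, crosses are called genes with opposite signs, and grey points are all other genes. Members lie in the lower left and upper right quadrants by their definition, most of them farther out along the ND axis; 5 genes beyond the axes, 3 of them called, are not drawn.

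A stricter rule required a difference on each diet in 1 direction, by testing the larger of the 2 within-diet p-values. Only MGP_C57BL6NJ_G0033694, the gene absent from KO, passed it with edgeR (adjusted p = 1.34e-07), 0.00722% of tested genes, and 0 genes passed as higher. The count was 9 of 14221 tested genes without WT ND replicate 3. It was 2 of 14199 without WT ND replicate 2 and 2 of 14197 without KO HFD replicate 1. DESeq2 called 15 of 13843 genes by this rule, all lower in KO. The 9 and the 15 were all members. The rule and the members share libraries and the same-sign condition, so this is no separate finding.

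When each diet was instead tested on its own, 7 genes were called on both diets in the same direction, 0.0506% of those tested, and 3 in opposite directions, 0.0217%. All 7 were lower in KO. Without KO HFD replicate 1, the share of tested genes called on HFD rose from 0.246% to 5.79%. Of the 14197 genes tested in that fit, 56 were called in the same direction, 49 of them lower and the 7 among them. In opposite directions 83 were called. One of the 7 is the gene absent from KO, and the other 6 fell by 1.75-fold to 3.25-fold on ND and 1.83-fold to 2.69-fold on HFD. In every one of the 6, the WT and KO libraries did not overlap on either diet, against 2.09% of all tested genes in the same direction. The 6 were picked by their calls in these same libraries, so this is a description. The 6 genes are given below by their rank among the 149 members that fell, ordered by the size of the average change.

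The fall of rank 21 had the lowest adjusted p of the 6. Its level was 814, 785 and 439 CPM in WT ND replicates 1 to 3 and 206, 196 and 226 CPM in KO ND replicates 1 to 3. On HFD it was 333, 393 and 371 CPM in WT and 161, 152 and 144 CPM in KO. WT ND replicate 3 was the lowest of the WT ND libraries and still lay above every KO ND library. The average log2 fold change was -1.48 ± 0.14 (SE; edgeR adjusted p = 0.000298), with -1.70 on ND and -1.26 on HFD (edgeR adjusted p = 0.000995 and 0.0132).

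The falls of rank 27 and 34 were the ones with the larger difference on HFD among the 3 most changed of the 6. At rank 27, WT ND libraries stood at 147, 152 and 87.0 CPM and KO ND libraries at 49.6, 51.3 and 53.9 CPM. The same gene stood at 93.6, 107 and 97.7 CPM in WT HFD and at 52.4, 26.2 and 34.4 CPM in KO HFD, where replicate 1 was the highest (averaged log2 difference -1.36, SE of 0.17, adjusted p in edgeR of 0.00191). At rank 34, WT ND libraries stood at 285, 327 and 233 CPM and KO ND libraries at 140.1, 118 and 168 CPM. This gene was the only one of the 6 whose WT mean was higher on HFD than on ND, with 414, 369 and 391 CPM in WT HFD against 195, 107 and 135 CPM in KO HFD (log2 change averaged over diets -1.21 ± 0.15 SE, edgeR adjusted p = 0.00154). KO HFD replicate 1 was again the KO HFD library nearest to WT.

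The falls of rank 45, 53 and 71 were 1.75-fold to 2.47-fold lower in KO on ND and 1.83-fold to 1.98-fold lower on HFD. At rank 45 the levels were 126, 129 and 88.7 CPM in WT ND, 46.6, 38.7 and 54.1 CPM in KO ND, 88.2, 65.0 and 78.8 CPM in WT HFD and 36.1, 43.5 and 38.4 CPM in KO HFD. At rank 53 they were 189, 216 and 137 CPM in WT ND, 84.5, 88.3 and 83.8 CPM in KO ND, 98.9, 127 and 122 CPM in WT HFD and 61.7, 58.4 and 55.7 CPM in KO HFD. At rank 71 they were 292, 359 and 221 CPM in WT ND, 156, 175 and 168 CPM in KO ND, 119, 113 and 116 CPM in WT HFD and 64.5, 64.7 and 60.4 CPM in KO HFD. WT ND replicate 3 was the WT ND library nearest to KO in all 3. Their average log2 fold changes were -1.14, -1.03 and -0.84 (SE 0.12, 0.11 and 0.11). The interaction, which tests whether the genotype difference differs between diets, was not called for any of the 6 (edgeR adjusted p from 0.446 to 0.932), which does not show that the differences were equal.

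**Figure D3:**
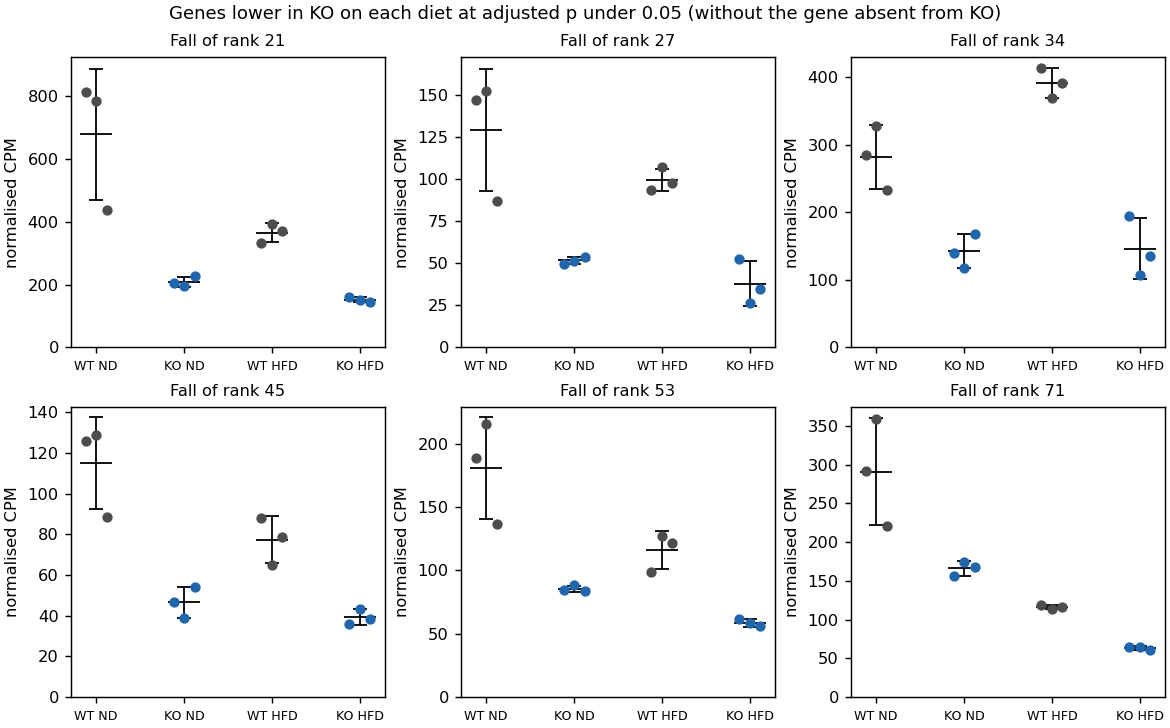
Normalised CPM (linear axes from 0) of the 6 genes called lower in KO on each diet, without the gene absent from KO. Points are libraries in the order of their replicate numbers, the horizontal bar is the group mean and the error bar the SD (n = 3). In each panel both KO groups lie below the WT group of the same diet, and the WT ND replicate 3 point is the lowest of its group.

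Among annotated members at or above a mean of 1 CPM with non-overlapping groups on both diets, the largest fall after the gene absent from KO was that of MGP_C57BL6NJ_G0022584. It had 68, 120 and 20 counts in WT ND replicates 1 to 3 and 6, 3 and 7 in KO ND, and 252, 53 and 127 counts in WT HFD and 2, 8 and 12 in KO HFD. All 6 KO libraries were below all 6 WT libraries, although WT libraries of the same diet differed several-fold from each other. Its mean CPM was 13.3-fold lower in KO on ND and 21.4-fold lower on HFD (averaged log2 difference -4.03, SE of 0.57, adjusted p in edgeR of 0.00629). Its call was lost in limma-voom (adjusted p = 0.0582, the highest over its alternatives, which ran down to 2.33e-13).

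The fall of rank 15, with a mean of 1001 CPM, had the most reads of the 15 largest falls. It stood at 1519, 2691 and 1015 CPM in WT ND, 309, 264 and 388 CPM in KO ND, 1657, 1250.3 and 1455 CPM in WT HFD and 599, 426 and 437 CPM in KO HFD. Every KO library was below every WT library across both diets. The mean was 5.44-fold lower in KO on ND and 2.98-fold lower on HFD, with an average log2 fold change of -2.01 ± 0.21 (SE; edgeR adjusted p = 0.00107). On HFD alone it missed the threshold (edgeR adjusted p = 0.0550). The fall of rank 6 was steeper, with 26.1, 34.9 and 7.01 CPM in WT ND against 1.58, 1.77 and 2.01 CPM in KO ND, and 23.1, 10.9 and 14.8 CPM in WT HFD against 4.47, 1.36 and 2.65 CPM in KO HFD. Its mean differed 12.7-fold on ND and 5.76-fold on HFD (log2 change averaged over diets -3.10 ± 0.42 SE, edgeR adjusted p = 0.00596).

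The members that rose had smaller changes. The largest rise with non-overlapping groups was that of MGP_C57BL6NJ_G0004126, with 4, 21 and 22 counts in WT ND and 51, 55 and 55 in KO ND, and with 3, 1 and 1 counts in WT HFD and 16, 6 and 7 in KO HFD. It was thus low on HFD in both genotypes. KO lay above WT on each diet, on HFD by few reads. The average log2 fold change was 2.08 ± 0.47 (SE; edgeR adjusted p = 0.0460), and neither diet alone passed (edgeR adjusted p = 0.0710 on ND and 0.276 on HFD). The next was that of MGP_C57BL6NJ_G0033449, with 64, 51 and 62 counts in WT ND, 71, 67 and 105 in KO ND, 2, 3 and 6 in WT HFD and 9, 43 and 25 in KO HFD. Its KO and WT groups nearly touched on ND, where the mean CPM was 1.34-fold higher in KO, and stood 6.59-fold apart on HFD (averaged log2 difference 1.56, SE of 0.34, adjusted p in edgeR of 0.0360). Both calls are near the threshold: that of MGP_C57BL6NJ_G0004126 was lost in 12 of its 19 alternatives (edgeR, limma or DESeq2 adjusted p from 0.000836 to 0.134) and that of MGP_C57BL6NJ_G0033449 in 13 of its 19 (0.00113 to 0.228).

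The rise of rank 14 had fold changes of close size on the 2 diets. It stood at 12.2, 13.5 and 19.8 CPM in WT ND, 29.7, 27.8 and 28.3 CPM in KO ND, 21.0, 12.2 and 14.4 CPM in WT HFD and 27.5, 28.3 and 29.8 CPM in KO HFD. All 6 KO libraries lay between 27.5 and 29.8 CPM, above all 6 WT libraries. The mean was 1.89-fold higher in KO on ND and 1.80-fold higher on HFD (log2 change averaged over diets 0.88 ± 0.14 SE, edgeR adjusted p = 0.00829). At rank 12 the levels were 20.2, 10.4 and 11.1 CPM in WT ND, 32.5, 30.7 and 29.8 CPM in KO ND, 17.2, 12.3 and 15.3 CPM in WT HFD and 30.9, 22.2 and 21.2 CPM in KO HFD (averaged log2 difference 0.94, SE of 0.17, adjusted p in edgeR of 0.0148). Its KO libraries also lay above all 6 WT libraries.

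For most members, more of the average came from ND than from HFD. The difference was larger on ND for 114 of the 149 that fell and 36 of the 49 that rose. The median log2 fold change of the falls was -1.08 on ND and -0.54 on HFD, and that of the rises was 0.89 on ND and 0.40 on HFD. The smaller of a member's 2 differences was at least 0.5 times the other for 94 of the 198, and under 0.25 times the other for 48. On ND alone 141 members were called and not on HFD, on HFD alone 13, on both 7 and on neither 37, where 4.81% of all tested genes were called on ND (1.96% higher and 2.85% lower in KO) and 0.246% on HFD (0.0867% higher and 0.159% lower). The interaction was called for 21 members, 4 of the rises and 17 of the falls, against 1.21% of all tested genes (0.766% with a signed KO to WT log2 difference that was higher on HFD than on ND, and 0.441% with a lower one). The average was computed from these differences, so these counts describe its make-up. Without KO HFD replicate 1, the median on HFD was -0.66 for the falls and 0.44 for the rises, and 66 members (54 lower and 12 higher) were called on HFD in place of 20, while the share of all tested genes called on HFD went from 0.246% to 5.79%. The interaction was then called for 39 members and for 6.64% of all tested genes.

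The members were chosen on these same libraries, so their values by library are a description. The median log2 difference of the 149 falls from the mean of WT on the same diet was -1.02, -1.09 and -0.97 in KO ND replicates 1 to 3 and -0.47, -0.72 and -0.53 in KO HFD replicates 1 to 3. For the 49 rises it was 0.80, 0.92 and 0.73 in KO ND and 0.38, 0.54 and 0.43 in KO HFD. For the WT libraries these medians lay between -0.16 and 0.15. Replicates differed in how often they were the one of their group nearest to the other genotype. WT ND replicate 3 was the WT ND library nearest to the KO ND mean for 60.1% of members, against 40.8% of all tested genes, and KO HFD replicate 1 was the KO HFD library nearest to the WT HFD mean for 59.1% of members, against 43.6%. WT HFD replicate 1 and KO ND replicate 3 were nearest for 43.4% and 44.4% of members, against 30.1% and 35.6% of all tested genes. Groups did not overlap on both diets for 102 members (76 lower and 26 higher), against 2.09% of all tested genes in the same direction. They did not overlap on ND only for 79 members and on HFD only for 17. Of all tested genes, the groups of 31.9% did not overlap on ND and those of 12.6% on HFD, whatever the other diet. Without KO HFD replicate 1, 141 members did not overlap on both diets, against 6.89% of all tested genes in the same direction.

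**Figure D4:**
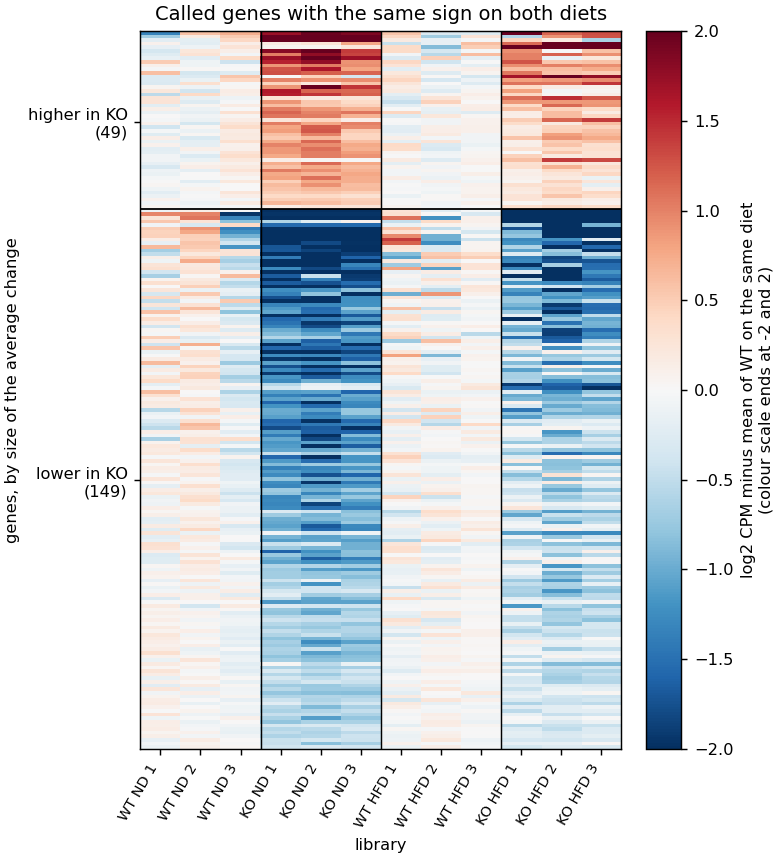
Difference of each library (columns) from the mean of the WT libraries on the same diet, in log2 CPM, for the 49 members that rose and the 149 that fell (rows, by size of the average change). Red is above and blue below the WT mean, with the colour scale ended at -2 and 2; the KO ND columns are darker than the KO HFD columns, where the medians of the falls are -0.47 to -0.72.

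Members took a small part of the reads. On ND, those that fell took 2.07% ± 0.376 of the counts of WT libraries and 0.969% ± 0.0685 of those of KO libraries, and on HFD 1.76% ± 0.0581 in WT against 1.11% ± 0.0624 in KO (SD over 3 libraries, n = 3 per group). On ND, those that rose took 0.253% ± 0.0189 in WT against 0.420% ± 0.0354 in KO, and on HFD 0.176% ± 0.0207 in WT against 0.260% ± 0.0294 in KO (SD, n = 3 per group). The called share rose with the mean CPM of a gene. It was 0.360% of genes under 1 CPM and 1.12% of those from 1 to under 10 CPM. From 10 to under 100 CPM it was 1.74%, and at 100 CPM and over 3.21%. At 100 CPM and over, 40 of the 47 called genes were lower in KO. Of the 198 members 190 were annotated genes and 8 unannotated loci.

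The members' own response to diet was read from the comparison of HFD with ND averaged over genotypes, which weighs the same 12 libraries differently and was not used to choose them. Here 56.9% of all tested genes were called, 27.9% higher and 29.0% lower on HFD. Of the 149 members that were lower in KO, 67 were called higher on HFD, 24 lower and 58 not called, with a median log2 fold change of 0.28 against 0.00475 for all tested genes. Of the 49 that were higher in KO, 5 were called higher on HFD, 28 lower and 16 not called, with a median of -0.43. The comparisons share all their libraries, controls included, so the counts stand side by side and are not read as an overlap. Among the 6 genes called on both diets, 5 were called lower on HFD, with log2 fold changes from -0.41 to -1.36, and the fall of rank 34 was not called (0.25, edgeR adjusted p = 0.145).

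How many genes were called depended on single libraries. Without KO HFD replicate 1, 1060 of 14197 tested genes were called, 450 higher and 610 lower. Of the 198 members, 197 were still among them. The members were chosen from these same libraries, so the number still called in a fit is a description. Removing another library mostly gave fewer calls. Among the KO HFD libraries, removal of replicate 2 left 112 and of replicate 3 left 62. Among the WT HFD libraries, removal of replicate 2 left 142 and of replicate 3 left 68. Removal of WT ND replicate 2 left 78. Among the KO ND libraries, the removal of replicates 1, 2 and 3 in turn left 129, 79 and 110. The members still called in these fits numbered 61 at the lowest (KO HFD replicate 3 removed) and 158 at most among the 11 fits that kept KO HFD replicate 1. The same sign on both diets was retained by 190 to 198 members in each of the 12 fits and by 178 members in all 12, so 20 lost it in at least 1. In all 12 fits 53 members were called, 49 of the falls and 4 of the rises, and all 7 genes called on both diets were among them. Of these 53, which were selected for their calls, 28 changed at least 2-fold and 36 had non-overlapping groups on both diets, where 2.09% of all tested genes did so in the same direction. Of the 49 falls, 48 had an average log2 fold change between -4.03 and -0.53, and the other was the gene absent from KO. An additive model of genotype and diet, which has no term for the interaction, called 57 of 13843 genes (50 lower and 7 higher). DESeq2 called 632 of 13843, with 194 of the 198 members among its calls.

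**Figure D5:**
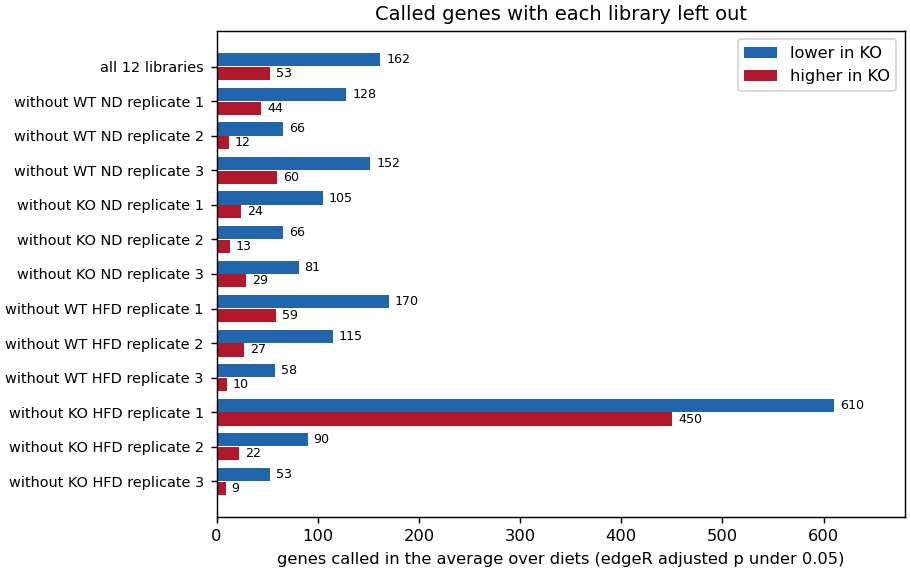
Number of genes called lower (blue) and higher (red) in KO on average over the diets, with all 12 libraries and with each library left out (bars, linear axis from 0). Every fit called more genes lower than higher, from 53 lower and 9 higher without KO HFD replicate 3 to 610 lower and 450 higher without KO HFD replicate 1.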

How the data were processed

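Per the labels' protocols, TRIzol was used to extract liver RNA and the NEBNext Ultra kit to prepare libraries. The deposited table holds raw read counts per gene for 12 libraries, whole numbers with different totals. HISAT2 2.0.5, featureCounts 1.5.0-p3 and build mm39 are named, per the submitters' processing notes. The IDs are of a C57BL/6NJ strain annotation (41096 rows) with 1458 unannotated loci, so the build is uncertain and no coordinates or sequences are given. The strand setting and the counting of reads shared by near-identical or overlapping genes are likewise not given in the sources used here; such genes are uncertain.

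Rows were kept by filterByExpr with the 4 groups (13843 rows, called genes here, 99.9% of counts in each library). TMM-normalised counts entered edgeR 4.0.16 under R 4.3.3 (robust quasi-likelihood fit, 1 mean per group, 12 libraries), with Benjamini-Hochberg adjustment over all rows. SEs derive from the fold change and F statistic. Log CPM used a prior count of 2. DESeq2 1.42.0 and limma 3.58.1 served as alternatives. The both-diet rule took the larger within-diet p, or 1 where signs differed. Named genes were the 2 largest rises and falls among annotated members at or above a mean of 1 CPM with non-overlapping groups on each diet; the others are given by rank and were chosen after their values were seen. Members, tests and lists were chosen with earlier results of these data known; the planned gene lists could not be used, as no ID matched a symbol. Replicates are separate samples in the labels, with nothing that ties them to separate animals, so a p-value reflects only how far these samples spread, and that spread may be technical. The steps were run on simulated counts with genotype changes put in. These had no diet response in WT and no library that stood apart, so they do not cover those features of the data.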

Additional observations from a re-analysis of the deposited data

Results flagged for a closer look

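The genotype difference differed between diets, by the interaction term of edgeR (adjusted p under 0.05), for 38 of the 215 genes called in the average, where 1.21% of all tested genes were called. Of the 38, 21 had the same sign on both diets and 17 opposite signs, which are all the called genes with opposite signs.

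Of all tested genes, 269 (1.94%) had KO and WT libraries that did not overlap on either diet and KO in opposite directions. Every KO library lay on one side on ND and on the other side on HFD. The count is over all tested genes, so it can include genes called in the average. In the same direction the groups did not overlap for 289 genes (2.09%). Without KO HFD replicate 1, the counts were 839 in opposite directions and 954 in the same direction. The difference of the 269 genes was not tested as a class.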

How the results depend on the processing

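The alternatives for the unadjusted counts by direction, and the values without KO HFD replicate 1 for non-overlapping groups, 2-fold changes, calls on each diet and interaction calls of members, were added after seeing the data. The other alternatives were planned. Of 119 alternative counts of called genes, 67 stayed within 1.5 times the reported one. The 119 pool every comparison, that of HFD with ND included, where nearly all counts stayed within this limit. For the average alone, most alternatives lay outside it. DESeq2 called 632 genes in the average, 15 by the rule for both diets, 1313 on ND, 261 on HFD and 656 for the interaction. Limma-voom with quality weights called 3499 in the average (1805 higher and 1694 lower), 56 by the rule for both diets (50 lower and 6 higher), 1997 on ND, 6036 on HFD and 3808 for the interaction, with 48.8% of signs equal. For these the cause was not tested. The additive model called 57 in the average. Without a filter on low counts, 6 genes passed the rule for both diets and 71 were called on HFD, with 43.4% of signs equal, where rows without counts on 1 diet have no sign. With a mean of at least 10 CPM, fewer genes were tested, 17 were called on HFD and 5223 for the diet, with 52.0% of signs equal. The 6 libraries of each diet alone gave 8 on HFD and 944 on ND, and the cause was not tested. Leaving out 1 library gave 62 to 1060 genes in the average, 1 to 9 by the rule for both diets, 92 to 1176 on ND, 7 to 822 on HFD, 11 to 942 for the interaction and 7328 to 8087 for the diet. It gave 48.0% to 51.9% of equal signs, and 140 to 481 genes with unadjusted p under 0.05 on each diet in the same direction and 133 to 437 in opposite directions. Of 77 alternatives for the 4 printed genes, 26 ended a call and 0 reversed a direction.

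The replicate numbers were not taken as pairs, since the labels tie them to nothing shared and only 5 of 18 same-numbered pairs of libraries had deviations correlated over 0.1 (range -0.0170 to 0.246). The median correlation was 0.0552 for these pairs and -0.0375 for other pairs, and 7 of 12 libraries correlated best with their own number. With the replicate block, 320 genes were called in the average (84 higher and 236 lower), 892 on ND, 47 on HFD, 198 for the interaction and 1 by the rule for both diets.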

Other observations

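Of 34 genes called on HFD, 24 were also called in the average and 21 had the same sign on ND. Of 666 called on ND, 161 were called in the average and 364 had the same sign on HFD. Of all tested genes, 1.55% were called in the average and 50.5% had the same sign on both diets. The average is made from the 2 within-diet differences, so calls shared with it are no separate finding.

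Among the annotated members, 5 pairs carry consecutive IDs, and both genes of each pair were lower in KO. Of the 190 annotated members, 144 were lower in KO. The share of consecutive IDs among all tested genes was not counted, so these pairs are only listed. One run holds MGP_C57BL6NJ_G0022584, the fall of rank 3, between the falls of rank 2 and 144, with average log2 fold changes of -5.24, -4.03 and -0.41. The fall of rank 2 is near the floor, with WT ND replicate 3 at the same log2 CPM as every KO ND library. It was called in 6 of the 12 fits with 1 library left out and not by DESeq2. The other pairs are the falls of rank 37 and 53, 34 and 60, and 110 and 137, so 2 of the 6 genes called on both diets besides the absent gene are in such a pair. Whether these genes share reads was not tested.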
